A study of Rattus norvegicus with 4 samples.

Results

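Genes of the ATF4 and amino acid response were followed in ribosome footprint libraries of rat heart cells. The set holds the factors of the integrated stress response, amino acid transporters, and enzymes that make serine, proline, asparagine and folate-bound carbon units. Its members were picked by gene symbol, and all 37 symbols had a row among the 31038 gene rows of each library. The tested libraries, si3m, came from cells given an siRNA against eIF3m, and the control libraries, siNT, from cells given a control siRNA, with 2 libraries in each group. eIF3m belongs to eIF3, a multi-subunit initiation factor that helps load the small ribosomal subunit onto messenger RNA. Both groups were grown in DMEM with fetal bovine serum and treated with cycloheximide before lysis, and no age, strain or number of cultures is stated. The labels do not state whether replicate libraries derive from different cultures, so each p-value reflects the spread of these particular libraries, which could be technical. The cells are labelled NRVM, a common short form for ventricular myocytes of newborn rats, but the growth protocol names embryonic heart.

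Total counts were 8687598 and 6726969 in si3m and 3924434 and 3835750 in siNT, so depth moved with the group. Eif3m itself had 138 and 191 CPM in the si3m libraries, against 532 and 451 CPM in the siNT libraries, and fell 3.01-fold (log2 fold change -1.59, SE 0.111, edgeR adjusted p = 3.41e-08). With robust quasi-likelihood its log2 value was the same but the call was lost (adjusted p = 0.0522). CPM here means deposited counts scaled to a common library size with TMM factors, which centres the changes over all genes, so each change is relative to the other footprints and a change in total translation would not show. Of 12 cardiomyocyte markers, 6 (Tnni3, Myl2, Myl3, Ryr2, Nppa and Mybpc3) had at most 6 counts in every library. The 12 summed to 50.2 and 59.4 CPM in si3m, against 74.2 and 68.6 CPM in siNT. Only 3 of the 12 were tested, with 1 higher and 2 lower in si3m. The 10 fibroblast markers summed to 11734 and 11619 CPM in si3m, against 6745 and 6622 CPM in siNT, with all 6 tested markers higher in si3m and with Tcf21 and Fap at 0. Endothelial markers summed to between 3.48 and 5.59 CPM in the 4 libraries. Smooth muscle markers summed to 3661 and 3735 CPM in si3m, against 3187 and 3153 CPM in siNT. Of the 6 tested, 1 was higher and 1 lower in si3m. Macrophage markers summed to 15.8 and 17.0 CPM in si3m, against 30.9 and 34.6 CPM in siNT. Of the 2 tested, 1 was lower. In every library the cardiomyocyte sum was far below the fibroblast and smooth muscle sums. The markers thus do not bear out the label NRVM, and the values below are not read as those of myocytes alone. The part of these cell type markers in the changes below was not tested, and in such bulk libraries fewer cells of a type and fewer footprints per cell cannot be told apart.

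When amino acids run short, uncharged tRNA activates the kinase GCN2, which phosphorylates the initiation factor eIF2 and slows general initiation. Ribosomes then bypass the inhibitory upstream reading frames of the Atf4 messenger RNA, and more ATF4 protein is made. ATF4 pairs with C/EBP proteins on C/EBP-ATF response elements and switches on genes for amino acid uptake, amino acid synthesis and feedback control. The counts are per gene, so footprints on upstream reading frames and on the main reading frame of Atf4 cannot be told apart here.

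The promoters of the members were searched for the core of that element, because it is the sequence through which ATF4 is known to reach its targets. The search used the letters TGATGNAA on both strands of the 250 bases before each gene start, in RefSeq sequences of the GRCr8 build; the files were made on the older rn6 build. RefSeq promoters were matched for 32 members, with 33 entries because Slc3a2 had a pair, and 7 members, or 21.9%, held a match. Among all 33469 promoters in the table, 1139, or 3.4%, held a match. The members were listed as ATF4 and amino acid response genes, so this difference describes the list and is no result of the footprints. Each window below runs 5′ to 3′ on the strand of its gene, with the match in capitals.
Chac1, chr3:126795953-126795982, plus strand: cttctccgccgTTGCATCActcctgctagg
Nupr1, chr1:190645938-190645967, minus strand: aaaaggccagaTTGCATCAgacagggcttg
Ppp1r15b, chr13:47129811-47129840, plus strand: ctaggtccggcTGATGCAActtgccgcgtg
Pycr1, chr10:106420925-106420954, minus strand: ggtcctgtgtaTGATGCAAtgtacaaggct
Slc1a4, chr14:98761779-98761808, minus strand: cgcctccagcgTTGCATCAtccagccagca
Slc7a1, chr12:11664447-11664476, plus strand: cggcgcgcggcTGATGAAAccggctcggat
Trib3, chr3:161275536-161275565, minus strand: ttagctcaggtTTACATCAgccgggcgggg
The members Chac1, Nupr1, Slc1a4 and Trib3 carried the element in the opposite orientation (TTGCATCA or TTACATCA), and Ppp1r15b, Pycr1 and Slc7a1 in the forward one. In 5 of the 7 promoters the element read TGATGCAA when oriented alike. Slc7a1 had TGATGAAA and Trib3 TGATGTAA. The match began 235 bases before the start of Slc1a4 and 21 bases before that of Trib3, the farthest and the nearest of the 7. Of these 7 genes, Pycr1, Trib3 and Slc1a4 rose in si3m, Slc7a1 fell, and Chac1, Nupr1 and Ppp1r15b did not pass the threshold. Among the 25 matched members with no such letters in this window, 8 rose, 3 fell and 14 did not pass. Of all genes tested, 14.0% rose and 13.9% fell, and a difference between members with and without a match was not tested. A match describes the letters only, and binding was not measured.

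Across the whole set, more members rose than fell when eIF3m was reduced, but the response was uneven. Slc7a3 had too few counts to be tested, and of the 36 members tested 13 rose, 4 fell and 19 did not pass the threshold of adjusted p below 0.05 in edgeR's quasi-likelihood test, adjusted over all 12672 genes tested. The 17 called members were 47.2% of those tested, where 27.8% of all genes tested were called. That is 36.1% of the tested members higher, where 14.0% of all genes tested were higher, and 11.1% lower, where 13.9% of all genes were lower. The genes that rose were Slc1a5, Slc7a5, Slc1a4, Slc38a2, Psat1, Phgdh, Shmt2, Pycr1, Aldh18a1, Vldlr, Stc2, Trib3 and Ddit3. Those that fell were Slc7a1, Slc7a11, Cth and Eif2ak4. The median log2 fold change of the tested members was 0.17, beside 0.016 for all genes tested. Members were counted more deeply than the average gene, with a median of 1669 counts over the 4 libraries, beside 512 for all genes tested. A stricter low-count filter, of at least 50 counts in 2 libraries, kept all 36 members, with 13 higher and 5 lower. Of the 9509 genes it kept, 1798 were higher and 1853 lower, a larger share each way than in the reported fit. The part of depth in the difference between members and all genes was not tested. Leaving out si3m replicate 2 lowered the number of members higher to 8 of 36 and the median to 0.13. With total count scaling, 10 members were higher and 5 lower, and over all genes the split of 1771 higher and 1757 lower became 1428 and 2217.

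**Figure D1:**
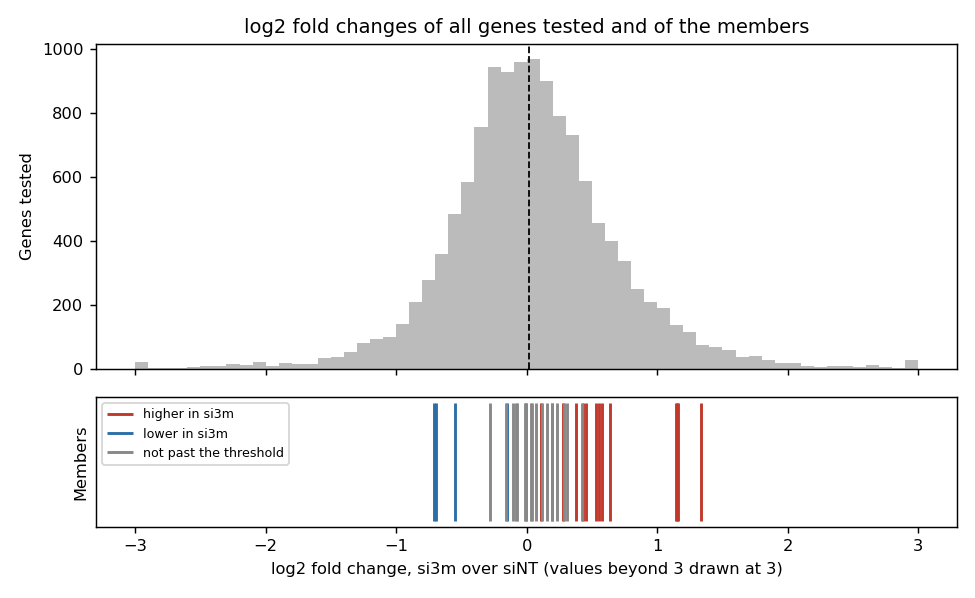
Number of genes tested by log2 fold change of si3m over siNT (upper panel; dashed line, median of all 12672 genes, 0.016) and the log2 fold change of each of the 36 tested members (lower panel, 1 line each, coloured by call). The members lie between -0.71 and 1.33, inside the spread of all genes, with more called lines to the right of 0 than to the left.

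Both si3m values lay above both siNT values for 20 members and below them for 7, and the groups overlapped for 9. Over all genes tested the values lay above for 32.6% and below for 31.3%. The members together took 0.855% and 0.835% of the deposited counts of the si3m libraries, against 0.854% and 0.836% of those of the siNT libraries. These shares of the library overlapped between the groups. After TMM scaling the members summed to 8748 and 8689 CPM in the si3m libraries, against 8337 and 8145 CPM in the siNT libraries. Within a group, the larger of the paired values of a member was at the median 1.08 times the smaller in si3m and 1.09 times in siNT, and the widest spreads were those of Ddit3 in si3m (1.61 times) and Pycr1 in siNT (2.05 times).

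**Figure D2:**
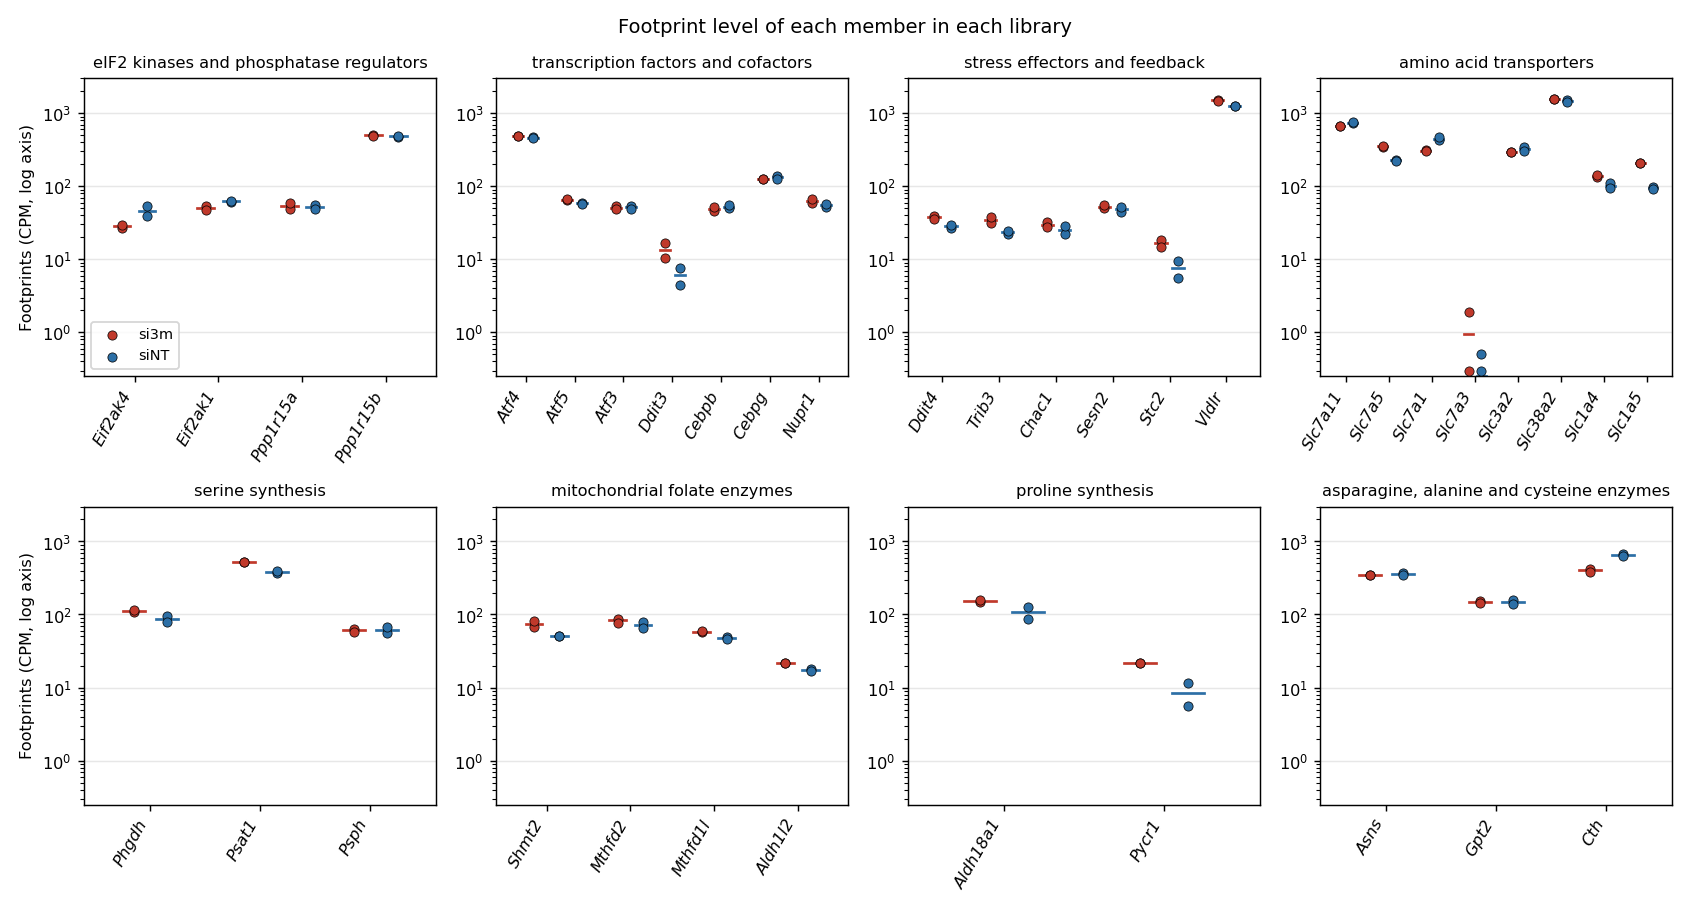
Footprint level of all 37 members in each library, in CPM on a log axis, by role; points are libraries, short lines are group means, with si3m left and siNT right of each gene, and values of 0 (Slc7a3) are drawn near the lower edge. Slc1a5, Slc7a5, Psat1 and Pycr1 sit clearly higher in si3m, Slc7a1, Cth and Eif2ak4 clearly lower, and Atf4, Asns and Gpt2 lie close together in all 4 libraries.

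Of the 4 genes for eIF2 kinases and phosphatase regulators, only Eif2ak4 passed, with fewer footprints in si3m. That is 25.0% lower, where 13.9% of all genes tested were lower. Eif2ak4, which encodes GCN2, had 27.1 and 29.4 CPM in the si3m libraries, against 38.8 and 53.4 CPM in the siNT libraries. Both si3m values were below both siNT values, and the siNT values were spread over a wider range. The gene fell 1.63-fold (log2 fold change -0.71, SE 0.182, edgeR adjusted p = 0.00867), which places it at the 9.18th percentile of the log2 fold changes of all genes tested. Without siNT replicate 2 its log2 fold change was -0.46 and did not pass (adjusted p = 0.0940). Eif2ak1, the heme-regulated kinase of eIF2, had 54.2 and 47.6 CPM in the si3m libraries, against 61.7 and 62.5 CPM in the siNT libraries. The groups did not overlap, with si3m lower, yet the difference missed the threshold (log2 fold change -0.28, SE 0.134, edgeR adjusted p = 0.134). In the GRCr8 annotation Eif2ak1 overlaps Aimp2, which has its own row, so their reads cannot be assigned with certainty.

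The phosphatase arm, which removes the phosphate from eIF2, did not pass in either gene. Ppp1r15a encodes GADD34, the stress-inducible targeting subunit, and had 48.3 and 59.1 CPM in the si3m libraries, against 55.8 and 48.8 CPM in the siNT libraries. Its groups overlapped, with a log2 fold change of 0.03 (95% interval -0.28 to 0.35). Ppp1r15b encodes CReP, the constitutive counterpart, and had 499 and 495 CPM in the si3m libraries, against 475 and 491 CPM in the siNT libraries. Those 4 values lay close together (log2 fold change 0.04, 95% interval -0.07 to 0.15, edgeR adjusted p = 0.611). For both genes the sign turned negative with total count scaling (-0.05 for Ppp1r15a and -0.04 for Ppp1r15b).

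Among the transcription factors, Atf4 footprints did not pass the test. Atf4 had 495 and 483 CPM in the si3m libraries, against 466 and 465 CPM in the siNT libraries, or 489 ± 8.03 CPM in si3m and 466 ± 0.370 CPM in siNT (SD, n = 2 each). Its si3m values lay just above its siNT values (log2 fold change 0.07, SE 0.0520, 95% interval -0.04 to 0.18, edgeR adjusted p = 0.346). The interval is narrow because the gene was counted deeply, with 4200 and 3124 deposited counts in si3m, against 1872 and 1832 in siNT. With total count scaling the log2 value was -0.01. Atf5, a relative of ATF4 that is also held back by upstream reading frames, had 64.1 and 66.2 CPM in the si3m libraries, against 59.7 and 57.4 CPM in the siNT libraries (log2 fold change 0.15, 95% interval -0.11 to 0.42). It did not pass (edgeR adjusted p = 0.401), and in the GRCr8 annotation it overlaps Nup62, which rose by 0.82 on the log2 scale, so their reads cannot be told apart with certainty.

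Ddit3 was the 1 factor of 7 that rose, or 14.3%, near the 14.0% of all genes tested that were higher. It encodes CHOP, a C/EBP family factor induced by ATF4 in prolonged stress, and had 10.4 and 16.7 CPM in the si3m libraries, against 4.48 and 7.62 CPM in the siNT libraries. Both si3m values were higher than both siNT values, but each pair was spread widely. The counts behind them were small, 88 and 108 deposited counts in si3m, against 18 and 30 in siNT. The fitted log2 difference was 1.15 (SE 0.357, 95% interval 0.39 to 1.91, edgeR adjusted p = 0.0250). The call was lost without siNT replicate 1 (log2 0.82, adjusted p = 0.0697), without si3m replicate 2 (log2 0.79, adjusted p = 0.286), in DESeq2 (adjusted p = 0.0770) and with counts thinned to equal depth (adjusted p = 0.0527). In the GRCr8 annotation Ddit3 overlaps Mars1, which fell by 0.34 on the log2 scale, so reads of the pair are uncertain.

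The other factors did not pass. Atf3, an ATF family factor of the stress response, had 53.5 and 48.9 CPM in the si3m libraries, against 53.8 and 49.3 CPM in the siNT libraries, with overlapping groups and a log2 fold change of -0.01 (95% interval -0.31 to 0.29), a sign that turned under several alternatives. Cebpb had 45.9 and 52.0 CPM in the si3m libraries, against 49.8 and 55.4 CPM in the siNT libraries, and its groups overlapped too (log2 -0.11). Cebpg, a dimer partner of ATF4, had 124 and 126 CPM in the si3m libraries, against 139 and 126 CPM in the siNT libraries (log2 -0.08). These C/EBP genes thus gave values below 0 that did not pass (adjusted p = 0.634 for Cebpb and 0.512 for Cebpg in edgeR). Nupr1, a small stress-induced nuclear protein, had 58.9 and 67.1 CPM in the si3m libraries, against 52.8 and 57.4 CPM in the siNT libraries. Its si3m values lay above its siNT values without passing (log2 0.19, edgeR adjusted p = 0.320).

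The stress effectors downstream of ATF4 had fitted values above 0 in all 6 cases, and 3 of them passed. Fitted values were above 0 for 51.2% of all genes tested, and 14.0% of all genes tested were higher. Vldlr, the very low density lipoprotein receptor, had 1529 and 1479 CPM in the si3m libraries, against 1239 and 1239.8 CPM in the siNT libraries. All its si3m values stood above its siNT values, with little spread in either group, and it rose 1.21-fold (log2 fold change 0.28, SE 0.0372, edgeR adjusted p = 3.93e-05), a call kept under all 13 alternatives. Stc2, a secreted stanniocalcin, had 18.4 and 14.8 CPM in the si3m libraries, against 9.46 and 5.59 CPM in the siNT libraries. The groups did not overlap, on low counts (156 and 96 deposited counts in si3m, against 38 and 22 in siNT), and Stc2 rose 2.21-fold (log2 fold change 1.14, SE 0.305, edgeR adjusted p = 0.0106). Its call was lost when si3m replicate 1 was left out (adjusted p = 0.0828).

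Trib3, a pseudokinase that restrains ATF4 and AKT, had 31.6 and 38.4 CPM in the si3m libraries, against 22.4 and 24.4 CPM in the siNT libraries. It rose 1.49-fold (log2 fold change 0.57, SE 0.191, edgeR adjusted p = 0.0349), with no overlap between groups. The call was lost without siNT replicate 1 (adjusted p = 0.0713), without si3m replicate 2 (adjusted p = 0.313), in DESeq2 (adjusted p = 0.114) and with total count scaling (adjusted p = 0.0652). Ddit4, which encodes the mTORC1 inhibitor REDD1, had 39.6 and 35.9 CPM in the si3m libraries, against 26.9 and 29.5 CPM in the siNT libraries. Its groups did not overlap, but it missed the threshold (log2 fold change 0.42, SE 0.174, edgeR adjusted p = 0.0845). Chac1, which breaks down glutathione, had 32.0 and 27.5 CPM in the si3m libraries, against 22.4 and 28.5 CPM in the siNT libraries, and Sesn2, a leucine sensor that restrains mTORC1, had 50.2 and 55.4 CPM in the si3m libraries, against 44.3 and 52.8 CPM in the siNT libraries. Neither passed, with log2 values of 0.23 (95% interval -0.19 to 0.66) for Chac1 and 0.12 (95% interval -0.20 to 0.43) for Sesn2, and the groups of both overlapped.

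**Figure D3:**
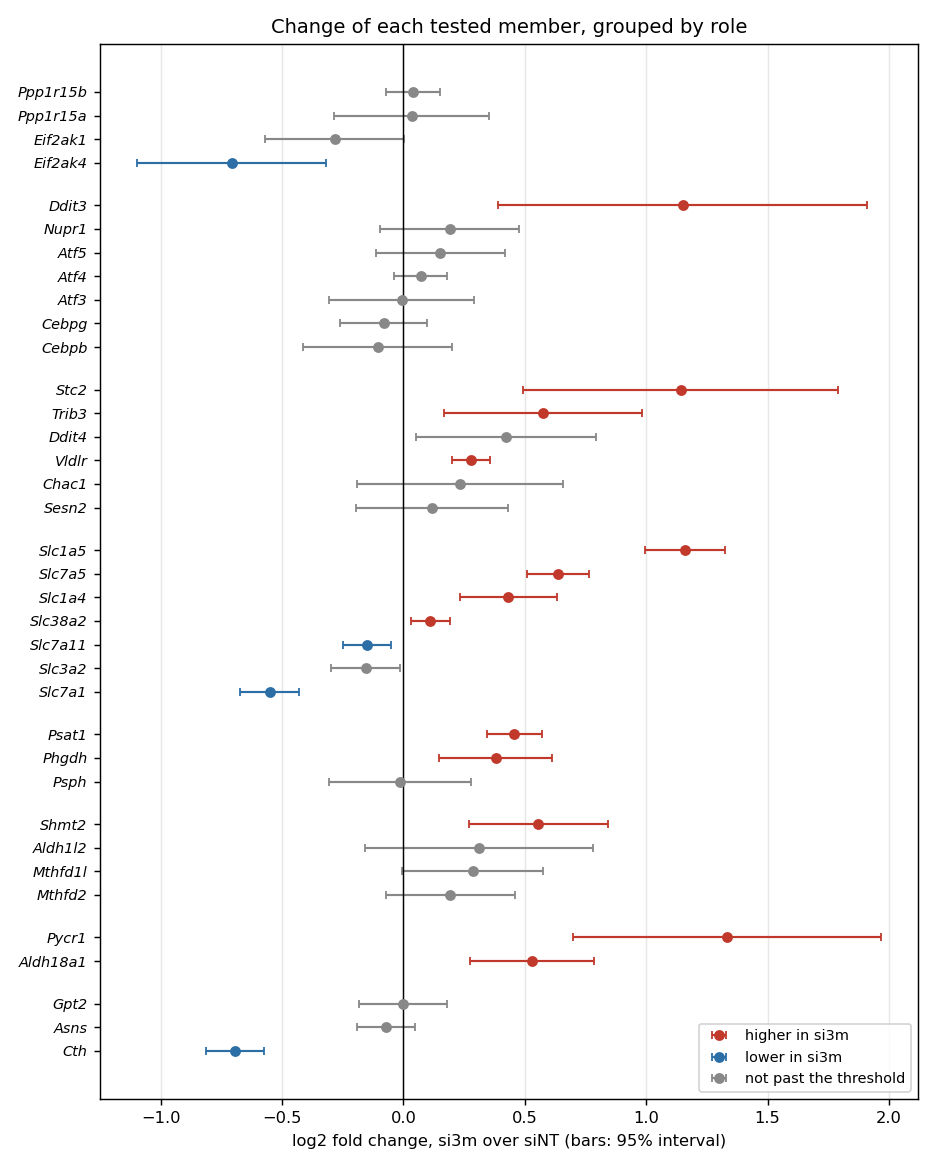
Log2 fold change of si3m over siNT for the 36 tested members, grouped by role and ordered by size within a role, with 95% intervals from the edgeR fit. Red marks members higher in si3m, blue members lower, grey members not past the threshold; transporters stand on both sides of 0, from -0.55 for Slc7a1 to 1.16 for Slc1a5.

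The amino acid transporters moved in both directions, 4 rising and 2 falling among 7 tested. These were 57.1% and 28.6%, where 14.0% and 13.9% of all genes tested rose and fell. Slc1a5, the glutamine carrier ASCT2, had 208 and 210.4 CPM in the si3m libraries, against 96.6 and 91.0 CPM in the siNT libraries. Both si3m values stood far above both siNT values, and the gene rose 2.23-fold (log2 fold change 1.16, SE 0.0776, edgeR adjusted p = 1.95e-08). Slc1a4, the related carrier ASCT1 for alanine, serine and cysteine, had 134 and 141 CPM in the si3m libraries, against 109.8 and 94.0 CPM in the siNT libraries. It rose 1.35-fold without overlap (log2 fold change 0.43, SE 0.0938, edgeR adjusted p = 0.00266). Slc7a5, the LAT1 light chain that exchanges glutamine for leucine and other large neutral amino acids, had 342 and 361 CPM in the si3m libraries, against 230.5 and 222 CPM in the siNT libraries. It rose 1.56-fold (log2 fold change 0.64, SE 0.0594, edgeR adjusted p = 8.55e-07). All 3 calls held under the 13 alternatives.

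Slc38a2, the sodium-coupled carrier SNAT2, had 1576 and 1576 CPM in the si3m libraries, against 1498 and 1422 CPM in the siNT libraries. The groups did not overlap but differed little, by 0.11 on the log2 scale (SE 0.0374, edgeR adjusted p = 0.0386). The rise was lost under 6 alternatives: total count scaling (log2 0.03, adjusted p = 0.629), DESeq2 (adjusted p = 0.0637), thinned counts (adjusted p = 0.116), and without siNT replicate 2 (adjusted p = 0.154), si3m replicate 1 (adjusted p = 0.0605) or si3m replicate 2 (adjusted p = 0.0630).

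Slc7a1, the carrier CAT1 for arginine and lysine, went the other way, with 309 and 306 CPM in the si3m libraries, against 434 and 466 CPM in the siNT libraries. Every si3m value lay well below the siNT values, and the gene fell 1.46-fold (log2 fold change -0.55, SE 0.0571, edgeR adjusted p = 2.94e-06), also under all 13 alternatives. Its relative Slc7a3 had 16 and 0 deposited counts in si3m, against 0 and 2 in siNT, at or near the limit of 6 counts that a count of 0 allows in all but si3m replicate 1, and no fold is given. Slc7a11, which imports cystine in exchange for glutamate, had 678 and 667 CPM in the si3m libraries, against 737 and 755 CPM in the siNT libraries. It fell 1.11-fold (log2 fold change -0.15, SE 0.0461, edgeR adjusted p = 0.0232), a call lost without siNT replicate 2 (adjusted p = 0.0550), without si3m replicate 1 (adjusted p = 0.0912) or without si3m replicate 2 (adjusted p = 0.172).

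Slc3a2 is the heavy chain that both LAT1 and the cystine carrier need to reach the cell surface. It had 297 and 291 CPM in the si3m libraries, against 350.5 and 305 CPM in the siNT libraries, lower in si3m without passing (log2 fold change -0.16, SE 0.0661, edgeR adjusted p = 0.0936). Without siNT replicate 2 it passed as lower (log2 -0.25, adjusted p = 0.00332), as it did with total count scaling (adjusted p = 0.0170) and with the stricter filter (adjusted p = 0.0422). Without siNT replicate 1 the log2 value was -0.0482 (adjusted p = 0.682). Counts of a pair of genes divided within a library do not depend on scaling, and such pairs were picked after their values were seen. The ratio of Slc7a5 to Slc3a2 counts was 1.15 and 1.24 in the si3m libraries, against 0.658 and 0.726 in the siNT libraries. That of Slc7a11 to Slc3a2 was 2.28 and 2.29 in the si3m libraries, against 2.10 and 2.47 in the siNT libraries, with overlapping groups. Relative to the shared heavy chain, the LAT1 light chain was thus higher in both si3m libraries than in either siNT library.

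The ratio of Slc7a5 to Slc7a1, a neutral against a cationic amino acid carrier, was 1.11 and 1.18 in the si3m libraries, against 0.531 and 0.475 in the siNT libraries. For Slc1a5 to Slc1a4 it was 1.56 and 1.49 in the si3m libraries, against 0.880 and 0.968 in the siNT libraries. Both ratios were higher in si3m with no overlap. With 2 libraries against 2, an exact permutation test of such a ratio cannot give a two-sided p below 0.333. The summed footprints of the 8 transporters were 3547 and 3552 CPM in the si3m libraries, against 3457 and 3356 CPM in the siNT libraries.

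**Figure D4:**
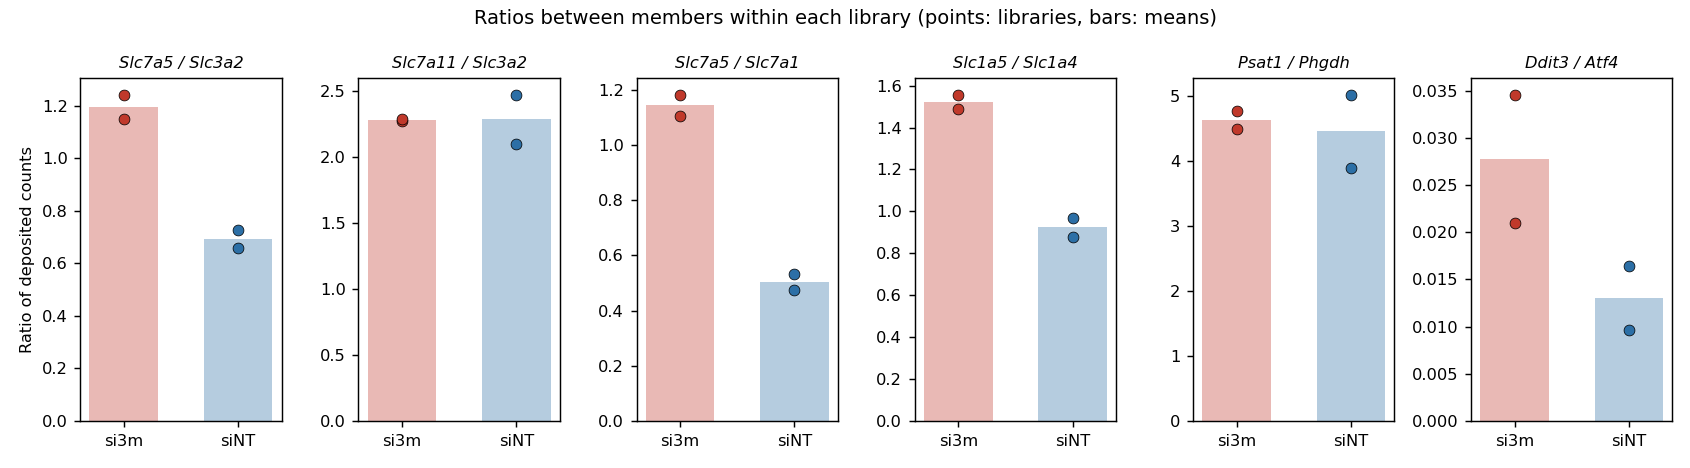
Ratio of deposited counts between 6 pairs of members within each library; points are libraries and bars are group means, with si3m left and siNT right. Slc7a5 / Slc3a2, Slc7a5 / Slc7a1, Slc1a5 / Slc1a4 and Ddit3 / Atf4 are higher in both si3m libraries, whereas Slc7a11 / Slc3a2 and Psat1 / Phgdh overlap between groups.

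Enzymes of serine synthesis rose in 2 of 3 cases, or 66.7%, where 14.0% of all genes tested were higher. Phgdh, which oxidises 3-phosphoglycerate in the entry step, had 109.6 and 117 CPM in the si3m libraries, against 96.1 and 77.7 CPM in the siNT libraries. It rose 1.30-fold (log2 fold change 0.38, SE 0.109, edgeR adjusted p = 0.0162), a call lost without siNT replicate 2 (log2 0.24, adjusted p = 0.121), without si3m replicate 2 (adjusted p = 0.0680), in DESeq2 (adjusted p = 0.0569) and with total count scaling (adjusted p = 0.0530). Psat1, the aminotransferase of the next step, had 524 and 526 CPM in the si3m libraries, against 374 and 391 CPM in the siNT libraries. All si3m values were above the siNT values with little spread, and Psat1 rose 1.37-fold (log2 fold change 0.46, SE 0.0535, edgeR adjusted p = 1.02e-05) under all 13 alternatives too. Psph, the phosphatase that releases serine, had 63.9 and 57.9 CPM in the si3m libraries, against 55.3 and 68.1 CPM in the siNT libraries, and its groups overlapped (log2 -0.02, 95% interval -0.31 to 0.28). The ratio of Psat1 to Phgdh counts was 4.78 and 4.50 in the si3m libraries, against 3.90 and 5.03 in the siNT libraries, with overlap. The 3 enzymes together reached 697 and 701 CPM in the si3m libraries, against 526 and 537 CPM in the siNT libraries.

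Of the mitochondrial folate enzymes, which take carbon units from serine, 1 of 4 passed. That is 25.0%, near the 27.8% of all genes tested that were called. Shmt2, the hydroxymethyltransferase that splits serine into glycine, had 68.1 and 81.7 CPM in the si3m libraries, against 51.3 and 50.3 CPM in the siNT libraries. It rose 1.47-fold (log2 fold change 0.56, SE 0.135, edgeR adjusted p = 0.00587), and lost its call when si3m replicate 2 was left out (adjusted p = 0.0916). Mthfd2, the dehydrogenase of the next step, had 88.1 and 77.7 CPM in the si3m libraries, against 79.6 and 65.5 CPM in the siNT libraries with overlapping groups (log2 0.19, edgeR adjusted p = 0.277). Mthfd1l, which releases formate, had 56.8 and 59.1 CPM in the si3m libraries, against 49.3 and 45.7 CPM in the siNT libraries (log2 0.28, edgeR adjusted p = 0.139). Aldh1l2, which oxidises formyl-folate, had 21.4 and 21.7 CPM in the si3m libraries, against 17.9 and 16.8 CPM in the siNT libraries (log2 0.31, edgeR adjusted p = 0.323). For Mthfd1l and Aldh1l2 the si3m values lay above the siNT values. All 4 fitted values were above 0, as were those of 51.2% of all genes tested. Their summed level was 234 and 240.1 CPM in the si3m libraries, against 198 and 178 CPM in the siNT libraries.

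Both enzymes of proline synthesis rose, where 14.0% of all genes tested were higher. Aldh18a1, which turns glutamate into the semialdehyde that proline is made from, had 148 and 160.4 CPM in the si3m libraries, against 125 and 87.9 CPM in the siNT libraries. The siNT libraries differed from each other, and the gene rose 1.44-fold (log2 fold change 0.53, SE 0.120, edgeR adjusted p = 0.00370). The call held in each alternative, with a log2 value of 0.30 without siNT replicate 2 and 0.81 without siNT replicate 1. Pycr1, the mitochondrial reductase of the last step, had 21.4 and 21.7 CPM in the si3m libraries, against 11.4 and 5.59 CPM in the siNT libraries, from 182 and 140 deposited counts in si3m, against 46 and 22 in siNT. It had the highest fold change of the tested members, 2.52-fold (log2 fold change 1.33, SE 0.298, edgeR adjusted p = 0.00336), and its call also held in each alternative. The size rests on which siNT library is used, with a log2 value of 0.92 without siNT replicate 2 and 1.95 without siNT replicate 1.

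Among the enzymes of asparagine, alanine and cysteine, 1 of 3 fell and none passed as higher. That is 33.3% lower, where 13.9% of all genes tested were lower. Asns, the asparagine synthetase and a classic target of ATF4, had 344 and 342 CPM in the si3m libraries, against 371 and 350.1 CPM in the siNT libraries. Its si3m values lay just below its siNT values, within a narrow interval (log2 -0.07, 95% interval -0.19 to 0.05, edgeR adjusted p = 0.384). Gpt2, the mitochondrial alanine aminotransferase, had 155 and 142 CPM in the si3m libraries, against 159 and 139 CPM in the siNT libraries, and its groups overlapped (log2 -0.00, 95% interval -0.18 to 0.18). Cth, the gamma-lyase that makes cysteine from cystathionine, had 419.7 and 387 CPM in the si3m libraries, against 668 and 636 CPM in the siNT libraries. Both si3m values were far below both siNT values, and Cth fell 1.62-fold (log2 fold change -0.69, SE 0.0562, edgeR adjusted p = 1.84e-07), under all 13 alternatives too. Cth and Slc7a11, which supply cysteine by synthesis and by uptake of cystine, were thus both lower in si3m, with the limits given for Slc7a11 above.

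**Figure D5:**
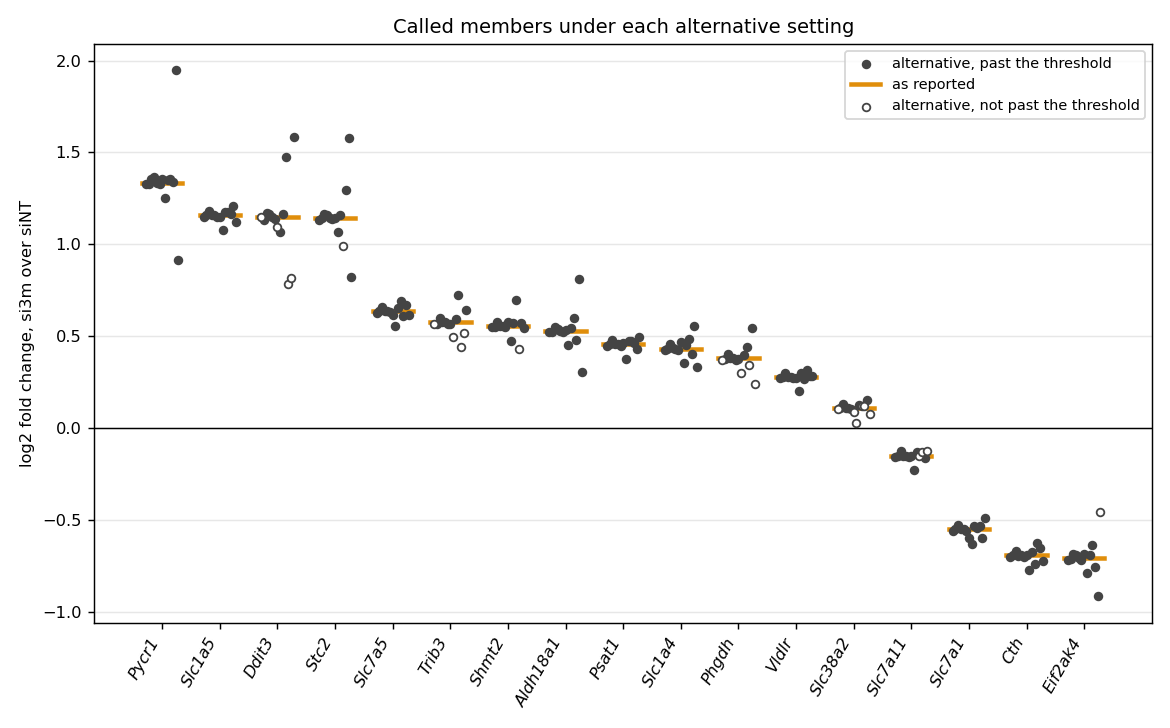
Log2 fold change of si3m over siNT for the 17 called members, as reported (orange line) and under 13 alternative settings (points; open points did not pass the threshold). Pycr1, Slc1a5, Slc7a5, Aldh18a1, Psat1, Slc1a4, Vldlr, Slc7a1 and Cth passed under every alternative run, and no called member changed sign.

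Beyond the members, eIF2 itself, its exchange factor and further regulators of eIF2 gave 1 gene higher (7.69%) and 2 lower (15.4%) of 13 tested. Of all genes tested, 14.0% were higher and 13.9% lower. Gcn1, which activates GCN2 on ribosomes, rose (log2 fold change 0.39, SE 0.0946, edgeR adjusted p = 0.00607), while Impact, which competes with GCN2 for Gcn1, fell (log2 fold change -0.53, SE 0.0789, edgeR adjusted p = 1.18e-04). Eif2ak2, the kinase PKR, fell (log2 fold change -0.23, SE 0.0631, edgeR adjusted p = 0.0142). Eif2s2, the beta subunit of eIF2, had a log2 value of -0.18 that did not pass (edgeR adjusted p = 0.0913). The median log2 value of these 13 was -0.17, beside 0.016 for all genes tested. Gcn1 did not pass when si3m replicate 2 was left out (adjusted p = 0.0801), nor Eif2ak2 without siNT replicate 1 (adjusted p = 0.0602), without si3m replicate 1 (adjusted p = 0.175) or in DESeq2 (adjusted p = 0.0631). Eif2s2 passed as lower without siNT replicate 1 (adjusted p = 0.00454) and with total count scaling (adjusted p = 0.0201), but its log2 value was -0.0518 without siNT replicate 2 (adjusted p = 0.713).

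Further targets of ATF4 and CHOP had 3 of 17 tested genes higher (17.6%) and 5 lower (29.4%), with a median log2 of -0.04. The shares of all genes tested were 14.0% higher and 13.9% lower. Jdp2, an AP-1 family repressor, rose (log2 fold change 1.21, SE 0.182, edgeR adjusted p = 1.22e-04), with 42.6 ± 0.340 CPM in si3m and 18.4 ± 0.801 CPM in siNT (SD, n = 2 each). Sqstm1, the autophagy receptor p62, fell (log2 fold change -0.65, SE 0.0551, edgeR adjusted p = 3.04e-07), with 405 ± 10.1 CPM in si3m and 635 ± 34.1 CPM in siNT (SD, n = 2 each). Vegfa, the angiogenic growth factor, fell (log2 fold change -0.52, SE 0.0706, edgeR adjusted p = 5.10e-05), and so did Gadd45a, a growth arrest gene (log2 fold change -0.25, SE 0.0652, edgeR adjusted p = 0.00878). The call of Gadd45a was lost on leaving out siNT replicate 2 (adjusted p = 0.0856). Fgf21 and Gdf15, secreted products of the response, had too few counts to be tested.

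Other amino acid transporters had 1 of 16 tested genes higher (6.25%) and 2 lower (12.5%), beside 14.0% and 13.9% of all genes tested. Slc7a2, a further carrier of arginine and lysine, had 0 and 0 deposited counts in si3m, against 46 and 32 in siNT. Its level was at least 24.4-fold lower in si3m taking 6 counts summed over si3m as the floor (edgeR adjusted p = 1.44e-05), the same direction as its relative Slc7a1. Slc1a3, a glutamate carrier, rose (log2 fold change 0.43, SE 0.102, edgeR adjusted p = 0.00542), and Slc36a4 fell (log2 fold change -0.32, SE 0.0877, edgeR adjusted p = 0.0131). Slc36a1, a lysosomal carrier, had a log2 value of -0.92 on low counts and did not pass (edgeR adjusted p = 0.233). Calls were lost for Slc1a3 without si3m replicate 1 (adjusted p = 0.0687) and for Slc36a4 without si3m replicate 2 (adjusted p = 0.108) and in DESeq2 (adjusted p = 0.0529). For Slc36a1 the sign depended on the siNT library, with a log2 value of 0.0628 without siNT replicate 1 (adjusted p = 0.962) and -1.48 without siNT replicate 2 (adjusted p = 0.0201). The median log2 of the 16 was 0.06, also with Slc7a2 set at its bound.

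Enzymes neighbouring those of the set had 5 of 20 tested genes higher (25.0%) and 2 lower (10.0%), beside 14.0% and 13.9% of all genes tested. Their median log2 was 0.27. Got1 and Got2, the aspartate aminotransferases, rose by 0.68 (SE 0.0971, edgeR adjusted p = 7.71e-05) and 0.37 (SE 0.0640, edgeR adjusted p = 4.41e-04) on the log2 scale.

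The aminoacyl-tRNA synthetases that ATF4 is reported to control had 2 of 12 tested genes higher (16.7%) and 4 lower (33.3%). Over all genes tested these shares were 14.0% and 13.9%. The median log2 of the 12 was -0.10. Nars1, for asparagine, rose (log2 fold change 0.35, SE 0.0537, edgeR adjusted p = 1.39e-04), and Vars1, for valine, rose (log2 fold change 0.62, SE 0.134, edgeR adjusted p = 0.00267). Tars1, for threonine, fell (log2 fold change -0.26, SE 0.0486, edgeR adjusted p = 9.57e-04), and Mars1, for methionine, fell (log2 fold change -0.34, SE 0.0843, edgeR adjusted p = 0.00636). The call of Mars1 was lost on leaving out si3m replicate 1 (adjusted p = 0.0972). Over all 5 lists outside the set, 12 of 78 tested genes, or 15.4%, were higher and 15, or 19.2%, lower, next to 14.0% and 13.9% of all genes.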

How the data were processed

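Ribosome footprints were counted in 4 libraries, 2 si3m and 2 siNT. The authors deposited whole-number counts per gene symbol with no normalization. Per the submitters' processing notes, the build was rn6, and featureCounts, HISAT2 2.2.1, DESeq2, Trimmomatic 0.40 and limma were used in roles and an order not stated. No source used here states the annotation, the strand setting or how reads that match several places were treated, so reads of overlapping or near-identical genes are uncertain. Even numbers made up 94.9% to 97.3% of nonzero counts per library, as if a fragment usually gave 2 reads, so a count of 0 allows up to 3 fragments (6 counts), or 0.707 to 1.52 CPM. Such limits cover counting error only. Replicates were kept as separate samples, since the median chi-square between them was 1.48 (si3m) and 1.40 (siNT) times that of counting noise.

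The whole table was fitted in R 4.3.3 by edgeR 4.0.16 (minimum count 10 in filterByExpr, TMM, glmQLFit, glmQLFTest, two-sided, Benjamini-Hochberg over 12672 genes, threshold 0.05), with group as the only term. SE is the log2 fold change divided by the root of the F statistic. Counts were simulated for this comparison and these genes, with a common dispersion of 0.0109 for every gene. Recovery was 25.0% of 76 genes at a 1.5-fold change, 75.4% of 65 at 2-fold and 98.3% of 59 at 4-fold. The test called 6 of 12472 unchanged genes. Far fewer genes were changed there than the 27.8% called in the data, and dispersion did not vary between genes. These rates therefore need not hold for the data. Alternatives were other scalings and filters, DESeq2 1.42.0, robust quasi-likelihood, halved and thinned counts, a replicate block and leaving out each library. The members, lists and naming rule (all members, Eif3m, and up to 4 genes with the smallest p of each of 5 pathway lists, 15 entries of which matched by an older symbol) were chosen with earlier results of these data known. Some genes that this rule names are not reported here. RNA-seq was not analysed here, so values are footprint abundance.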

Additional observations from a re-analysis of the deposited data

How the results depend on the processing

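Of the 17 calls among the members, 9 held under all 13 alternatives. The number of members higher ranged from 8 to 11 when 1 library was left out, against 13 with all libraries, and their median log2 fold change from 0.13 to 0.24, against 0.17. Leaving out si3m replicate 2 gave the 8, and the fit then rests on a lone si3m library assumed to vary like the others. In the 4 fits that leave out a library, and when low counts were kept, the prior degrees of freedom were infinite (13.1 in the reported fit), so every gene took the fitted trend as its spread and a call held there does not test that gene's own spread. The median was 0.21 with no low-count filter, where Slc7a3 also entered, and 0.091 with total count scaling, where the median of all genes was -0.064 (0.016 with TMM). DESeq2 called 9 members higher and 4 lower, and thinned counts 11 and 4. The low counts of Ddit3, Stc2 and Pycr1 limit how closely their sizes are known.

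Sign changes among the members were confined to those that passed in no setting. Total count scaling gave -0.0479 for Ppp1r15a, -0.0401 for Ppp1r15b and -0.0102 for Atf4. Atf3, Psph and Gpt2 had 0.0145, 0.00739 and 0.0201 when low counts were kept, 0.0268, 0.0328 and 0.0826 after thinning, and 0.00966, 0.00273 and 0.0154 with upper quartile scaling, in that order of genes. Leaving out 1 library gave -0.10 to 0.19 for Ppp1r15a, -0.0645 to 0.0631 for Atf3, -0.000419 to 0.25 for Sesn2, -0.15 to 0.15 for Psph and -0.0904 to 0.10 for Gpt2. The cause was not tested.

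With the replicate number as a block, 13 members were higher and 4 lower, and 1851 and 1843 of all genes, so the block changed no call among the members. The deviations of same-numbered libraries from their group means correlated at -0.02 over 12672 genes. Counting noise can lower such a correlation, so it cannot decide whether same-numbered libraries share a culture or day. The labels name no shared culture or day, so any pairing is unknown.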
